A study of Ovis aries with 20 samples.

Results

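Immediate early genes are genes whose transcripts appear within minutes of a stimulus because the factors that switch them on are already present in the cell. Those followed here in RNA sequencing of sheep trachea are the AP-1 factors FOS, FOSB and JUNB, the stress-responsive factor ATF3, the zinc finger factors EGR1 and EGR3, the orphan nuclear receptors NR4A1, NR4A2 and NR4A3, and the phosphatase DUSP1. These 10 genes were chosen by name, with earlier results of these data known, out of 24478 genes in the count tables. All 10 passed the filter on low counts, among 20097 genes tested.

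Signals that reach the nucleus through the MAP kinases, through cyclic AMP or through calcium act on serum response factor, its ternary complex partners and CREB, which sit on the promoters of these genes in advance. Several of the products act as brakes: DUSP1 removes the phosphates that activate MAP kinases, and ATF3 can repress transcription as well as activate it. In tissue taken from an animal the transcripts can also respond to the handling of the tissue itself, and they are short-lived once the stimulus ends.

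The samples were tracheal tissue, labelled epithelial, from CF animals and from healthy (WT) animals at days 65, 80, 100, 120 and 147, day 147 being birth. CF stands for cystic fibrosis, the disease of a lost CFTR chloride and bicarbonate channel, and the sources used here do not give the allele that the CF animals carried. Each of the 10 groups of genotype and age held 2 libraries, 20 in all, and days 65 to 120 are called fetal below. The series is about early deficits in a CF sheep model, and the comparisons are birth against the fetal ages, CF against WT, and the difference between these changes.

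Several libraries have features that bear on the values. Total counts ran from 42372433 to 87651829 per library. Both CF day 147 libraries carry 1 sample identifier, and so do both WT day 100 libraries, so that either pair may come from 1 animal. Another identifier is common to a WT day 65 library (replicate 2) and a CF day 100 library (replicate 2), although genotype and age differ between them. Nothing in the labels says that the other replicates came from separate animals, so a p-value measures only the spread between these libraries, which may be technical. Markers of other tissues stood high in 4 fetal libraries: thyroid markers summed to 109200 CPM in WT day 80 replicate 2, skeletal muscle markers to 23109 CPM in CF day 80 replicate 1, liver markers to 16447 CPM in CF day 65 replicate 2, and lymphocyte and thymus markers to 388 CPM in WT day 65 replicate 2. CPM are depth-scaled counts, on library sizes corrected by TMM, a method that sets most genes level between libraries. Epithelial markers were present in every library, at 5986 and 6041 CPM summed in CF birth libraries, 2925 and 7022 CPM in WT birth libraries and 1373 to 7474 CPM in fetal libraries. Fibroblast and matrix markers were present too, so the tissue was a mixture, and in such bulk tissue fewer cells of a type and less RNA per cell cannot be told apart.

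**Figure D1:**
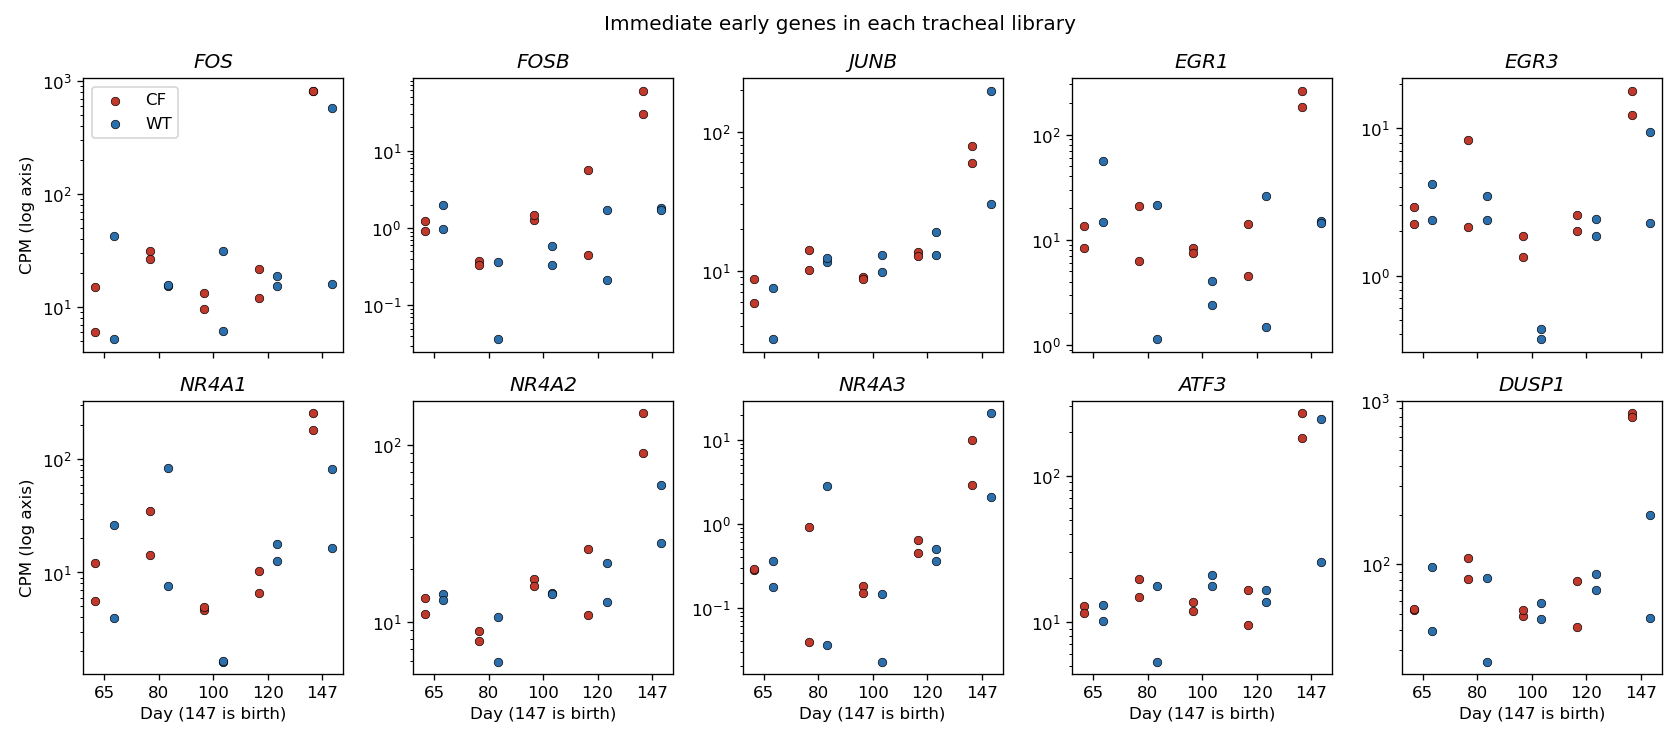
Level of each immediate early gene, in CPM on a log axis, in every library against the day of gestation, with CF (red) left of WT (blue) at each day. Both CF birth libraries sit above all 8 CF fetal libraries for 10 of 10 genes, and the WT birth libraries lie apart from each other for most genes.

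At birth all 10 genes were higher than at the fetal ages when the genotypes were averaged. The edgeR quasi-likelihood test called 10 of 10 higher, against 5.71% of all tested genes, with a median log2 fold change of 3.20 for the 10 genes and 0.02 for all genes. The adjusted p ran from 4.02e-05 for NR4A2 to 0.0203 for EGR1. Only EGR1 lost its call in some alternatives: without any 1 of the 4 birth libraries its adjusted p was 0.0503 to 0.0901, and with the libraries of a shared identifier summed it was 0.106. Behind this average stood both CF libraries, while the WT libraries parted.

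Within CF, 10 of 10 genes were called higher at birth than at the fetal ages, against 2.06% of all tested genes. The median log2 fold change was 4.15, with adjusted p from 0.000394 for NR4A2 to 0.0278 for NR4A3. Among the 20097 fold changes, FOS ranked 16, FOSB 24, NR4A1 57 and EGR1 63, and the lowest of the 10, EGR3, ranked 391. Both CF birth libraries lay above all 8 CF fetal libraries for 10 of 10 genes, against 6.47% of all tested genes. They lay above all 18 other libraries for 7 of 10, against 1.64%, the exceptions being JUNB, NR4A3 and ATF3, which exceeded at least 1 CF birth library in WT birth replicate 2. Since both CF birth libraries carry 1 identifier, they may not be separate animals. Summed into 1 sample, together with the WT day 100 pair, JUNB, EGR1, EGR3, NR4A1 and NR4A3 lost their calls. Their log2 fold changes were then 2.79, 4.45, 2.58, 4.51 and 4.22. Without CF day 147 replicate 1, JUNB (2.54), EGR1 (4.15), EGR3 (2.76) and NR4A3 (3.12) lost their calls. Without CF day 147 replicate 2, EGR1 (4.70), EGR3 (2.24) and NR4A3 (4.92) did. Each of these fits holds 1 CF birth sample. Calls in CF also fell over all tested genes with the pairs summed and without CF day 147 replicate 1.

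Within WT, 5 of 10 genes were called higher at birth than at the fetal ages, against 2.48% of all tested genes. These were JUNB, ATF3, NR4A2, FOS and NR4A3. The other 5 did not pass, with adjusted p of 0.0555 for EGR3, 0.131 for NR4A1, 0.304 for DUSP1, 0.346 for FOSB and 0.925 for EGR1. All 5 calls rest on WT day 147 replicate 2 and were lost without that library. The log2 fold changes were then -0.23 for FOS, 0.86 for ATF3, 1.10 for NR4A2, 1.52 for JUNB and 2.61 for NR4A3. That fit holds 1 WT birth library, and its WT calls also fell over all tested genes. Without WT day 147 replicate 1, 6 of 10 were called. WT day 147 replicate 1 lay above all 8 WT fetal libraries for 3 of 10 genes, against 13.8% of all tested genes, and WT day 147 replicate 2 for 7 of 10, against 16.2%. Both lay above them for JUNB, NR4A2 and ATF3, 3 of 10, against 3.64%.

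**Figure D2:**
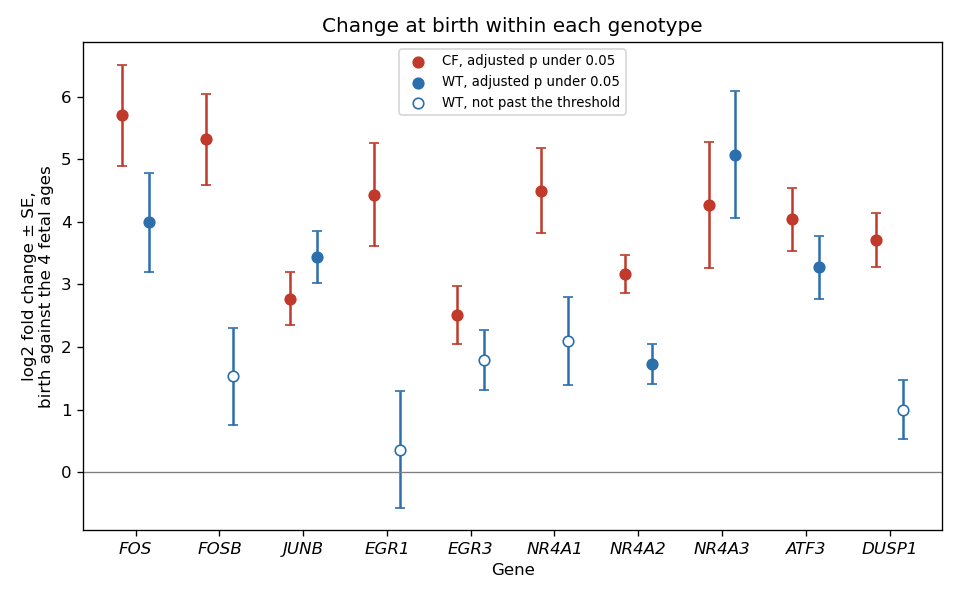
log2 fold change of each gene at birth against the mean of the 4 fetal ages, with CF (red) left of WT (blue) and bars of 1 SE from the edgeR fit. Filled points have an adjusted p under 0.05, which holds for 10 of 10 genes in CF and 5 of 10 in WT.

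Within CF the largest fold changes were those of FOS and FOSB. FOS, which pairs with JUN proteins to form AP-1, had 814 and 819 CPM in the CF birth libraries, against 6.02 to 31.3 CPM (median 14.3) in the 8 CF fetal libraries. In the WT birth libraries it had 16.02 CPM in replicate 1 and 576 CPM in replicate 2, against 5.20 to 43.0 CPM (median 15.6) in the 8 WT fetal libraries. Both CF birth libraries and WT replicate 2 lay far above every fetal library, whereas WT replicate 1 was close to the WT fetal median. The log2 fold change at birth was 5.70 ± 0.81 in CF (SE, adjusted p = 0.00185) and 3.99 ± 0.80 in WT (adjusted p = 0.0153). FOS made up 0.0852% and 0.0745% of all counts in the CF birth libraries, and 0.00166% and 0.0453% in the WT ones.

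FOSB, a close relative of FOS, followed another pattern. It had 59.2 and 29.7 CPM in the CF birth libraries, against 0.331 to 5.55 CPM in CF fetal libraries. In both WT birth libraries it stayed low, at 1.81 and 1.70 CPM, against 0.0364 to 1.98 CPM in WT fetal libraries. The change at birth was 5.32 ± 0.72 in CF (SE, adjusted p = 0.00158). WT birth replicate 2 thus did not join the CF libraries in FOSB, although it did in FOS. Its exons overlap LOC105616901, on the opposite strand, over 147 bases, and that row held 142 and 101 counts in the CF birth libraries and at most 17 in a fetal one. The sources used here do not give the strand setting, so reads of the overlap cannot be told apart between the 2 genes. FOSB is the gene at chromosome 14, bases 52035094 to 52040198, and FOS at chromosome 7, bases 83346063 to 83349261, in coordinates of the deposited tables, for which no source used here names a genome build.

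JUNB, the AP-1 partner that often opposes JUN, was highest in a WT library. It had 79.4 and 59.0 CPM in the CF birth libraries, against 5.85 to 14.1 CPM in CF fetal libraries, and 30.0 and 196 CPM in the WT birth libraries, against 3.22 to 18.9 CPM in WT fetal libraries. All 4 birth libraries exceeded all 16 fetal ones, which held for JUNB, NR4A2 and ATF3 among the 10, against 0.547% of all tested genes. The change at birth was 2.78 ± 0.43 in CF (SE, adjusted p = 0.00251) and 3.44 ± 0.42 in WT (adjusted p = 0.000871).

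ATF3 is induced by many kinds of cell stress. It had 269 and 181 CPM in the CF birth libraries, against 9.45 to 19.8 CPM in CF fetal libraries, and 25.6 and 246 CPM in the WT birth libraries, against 5.34 to 20.8 CPM in WT fetal libraries. WT replicate 2 matched the CF libraries, and WT replicate 1 was only just above the fetal range. The change at birth was 4.04 ± 0.50 in CF (SE, adjusted p = 0.00110) and 3.28 ± 0.50 in WT (adjusted p = 0.00384).

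EGR1, a serum and growth factor response gene, had 261 and 181 CPM in the CF birth libraries, against 4.57 to 20.8 CPM in CF fetal libraries. In the WT birth libraries it had 15.1 and 14.5 CPM, within the 1.13 to 56.3 CPM of WT fetal libraries. Both WT birth libraries thus lay in the fetal range, and the 2 libraries differed by 1.04-fold. The change at birth was 4.43 ± 0.82 in CF (SE, adjusted p = 0.00731). EGR3, which calcium signals induce in lymphocytes and neurons, was low throughout: 12.3 and 17.9 CPM in the CF birth libraries, 2.27 and 9.50 CPM in the WT ones, and 0.369 to 8.37 CPM in the fetal ones. Its change in CF was 2.51 ± 0.46 (SE, adjusted p = 0.00721).

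The 3 NR4A receptors act as transcription factors without a known natural ligand. NR4A1 had 257 and 181 CPM in the CF birth libraries, 16.3 and 81.7 CPM in the WT ones, and 1.63 to 83.4 CPM in the fetal ones. The highest fetal value, in WT day 80 replicate 2, exceeded both WT birth libraries. The change of NR4A1 at birth was 4.50 ± 0.68 in CF (SE, adjusted p = 0.00237). NR4A2 had 151 and 89.5 CPM in the CF birth libraries, 28.0 and 58.9 CPM in the WT ones, and 5.97 to 25.7 CPM in the fetal ones. All 4 birth libraries of NR4A2 were above the fetal range, and its change was 3.17 ± 0.31 in CF (SE, adjusted p = 0.000394) and 1.73 ± 0.32 in WT (adjusted p = 0.0106). NR4A3 had 9.99 and 2.93 CPM in the CF birth libraries, 2.09 and 20.9 CPM in the WT ones, and 0.0228 to 2.82 CPM in the fetal ones. This receptor had few reads, with counts down to 2 in a fetal library, and it was the only 1 of the 10 genes with over 2-fold between the CF birth libraries. Its fold changes of 4.26 ± 1.01 in CF (SE, adjusted p = 0.0278) and 5.07 ± 1.02 in WT (adjusted p = 0.0157) had the widest SE of the 10 genes within each genotype. The CF call was lost in 8 of 20 fits that left out 1 library: those without either library of CF days 65, 100, 120 or 147, with adjusted p up to 0.410. The WT call was lost without WT day 65 replicate 1, WT day 100 replicate 2 or WT day 147 replicate 2.

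DUSP1 had 843 and 793 CPM in the CF birth libraries, against 41.2 to 109.5 CPM in CF fetal libraries. In the WT birth libraries it had 46.8 and 202 CPM, against 25.4 to 96.2 CPM in WT fetal libraries. The CF birth libraries agreed closely and stood above all others, and WT replicate 1 was below the WT fetal median of 64.2 CPM. The change at birth was 3.70 ± 0.43 in CF (SE, adjusted p = 0.000749).

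**Figure D3:**
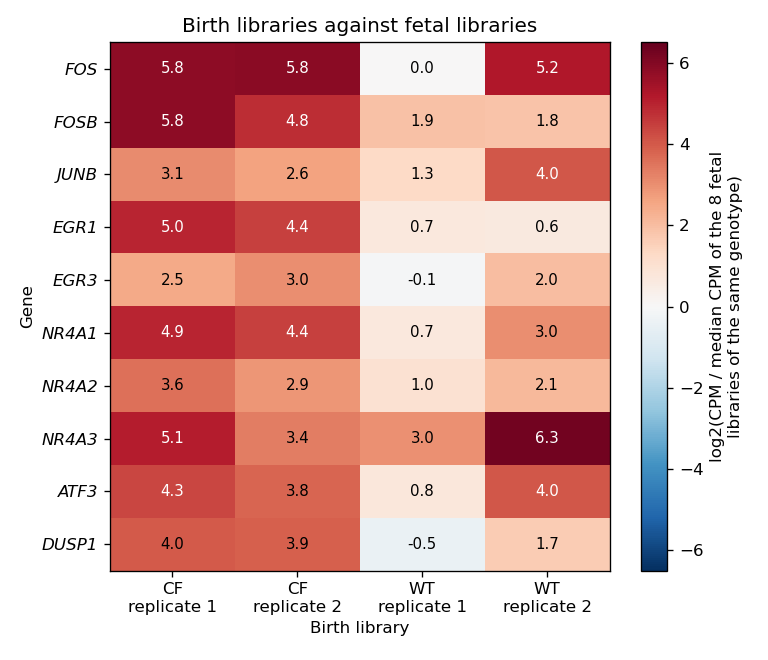
Each birth library, CF left and WT right, against the median of the 8 fetal libraries of its genotype, as log2 of the ratio of CPM. The median fold over the 10 genes was 25.3 and 14.3 in the CF libraries and 1.65 and 6.15 in the WT libraries.

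Set against the fetal median of its own genotype, CF day 147 replicate 1 had a median fold of 25.3 over the 10 genes (5.60 to 56.9), and CF day 147 replicate 2 one of 14.3 (6.16 to 57.3). WT day 147 replicate 1 had a median fold of 1.65 (0.729 to 7.76), with 2 of 10 genes below the fetal median. WT day 147 replicate 2 had one of 6.15 (1.55 to 77.8). The WT birth libraries were over 2-fold apart for 8 of 10 genes, against 44.2% of all tested genes, and WT replicate 2 was over 4-fold above replicate 1 for 7 of 10, against 4.62%. The gap was 35.9-fold for FOS, 10.02-fold for NR4A3, 9.62-fold for ATF3 and 6.53-fold for JUNB, but 1.06-fold for FOSB and 1.04-fold for EGR1. The CF birth libraries were over 2-fold apart for 1 of 10, against 14.5% of all tested genes.

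**Figure D4:**
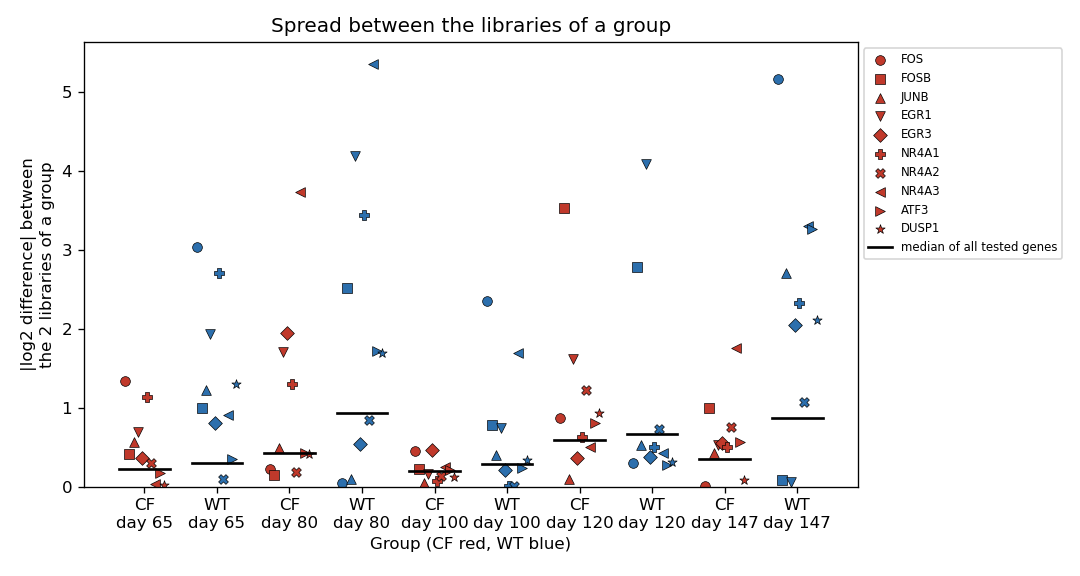
Absolute log2 difference between the 2 libraries of each group, CF groups (red) left of WT groups (blue), with 1 marker shape per gene and a bar for the median of all tested genes. The WT day 147 genes have a median of 2.22, against 0.87 for all genes, and the CF day 100 genes one of 0.19, against 0.20.

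Some other features of these birth libraries are given here, whether or not they differed from the fetal ones, and their part in the result was not tested. Counts of marker genes called over both genotypes stand against 5.71% of all tested genes higher and 5.74% lower. Heat shock genes summed to 11354 and 13225 CPM in the CF birth libraries, 4795 and 5504 CPM in the WT ones and 3633 to 12205 CPM in the fetal ones. Adipocyte markers, of which 6 of 6 were called higher at birth, summed to 209 and 2425 CPM in the CF birth libraries, 4718 and 207 CPM in the WT ones and 3.05 to 2197 CPM in the fetal ones. Neutrophil markers, 2 of 5 called higher, summed to 25.7 and 30.8 CPM in CF, 38.4 and 59.2 CPM in WT and 3.92 to 56.6 CPM in the fetal libraries. Fibroblast markers, 2 of 8 called lower, summed to 15335 and 11120 CPM in CF, 27316 and 17041 CPM in WT and 4380 to 49339 CPM in the fetal libraries. Within CF 4 of 8 fibroblast markers were called lower, against 3.12% of all tested genes. Within WT 0 of 8 were called lower, against 1.53%, with 1 at an unadjusted p under 0.05, against 3461 of 20097 tested genes in either direction. Erythroid markers, 2 of 5 called lower, summed to 3.39 and 5.62 CPM in CF and 4.12 and 2.17 CPM in WT, below the 11.3 to 624 CPM of the fetal libraries. Cartilage markers, 2 of 7 called higher, summed to 2489 and 1708 CPM in CF, 3781 and 1251 CPM in WT and 165 to 2879 CPM in the fetal libraries. Multiciliated cell markers summed to 1651 and 1647 CPM in CF, 1428 and 3105 CPM in WT and 433 to 2712 CPM in the fetal libraries. Macrophage markers summed to 81.7 and 109 CPM in CF, 252 and 371 CPM in WT and 76.0 to 355 CPM in the fetal libraries. Smooth muscle and endothelium sums lay within the fetal range in each birth library. A slope on log2 gene length, in which a degraded library can differ, was taken from log2 CPM less each gene's mean over the 20 libraries. It is thus relative to these libraries. The slope was 0.0731 and -0.0708 in CF, 0.102 in WT replicate 1 and -0.243 in WT replicate 2, against -0.179 to 0.245 in the fetal libraries. With this slope as a covariate the test called 10 of 10 in CF, 5 of 10 in WT and 10 of 10 over both genotypes. That fit also called more of the 20097 tested genes, in either direction: 3602 in CF, 2840 in WT and 5745 over both genotypes. Without the covariate these counts were 1041, 806 and 2302. Of the 10 genes, JUNB, NR4A2, NR4A3 and ATF3 were called in WT both with and without the covariate. FOS in WT lost its call, with a log2 fold change of 3.05 (adjusted p = 0.0974), and FOSB gained one.

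Among the fetal libraries the genes were lower and varied between libraries of a group. The 10 genes together made up 0.288% and 0.214% of counts in the CF birth libraries, 0.0190% and 0.111% in the WT ones, and 0.00711% to 0.0309% in the fetal ones. An F test over the 4 fetal ages, chosen after the data were seen, called EGR3 (adjusted p = 0.0413) and NR4A1 (adjusted p = 0.0383), 2 of 10, against 12.1% of all tested genes. These calls were not stable: the count was 0 in 14 of 20 fits that left out 1 library, WT day 80 replicate 2 among them, and 0 without the 4 libraries holding other tissue. In WT day 80 replicate 2 NR4A1 had 83.4 CPM, against 7.65 CPM in WT day 80 replicate 1. CF day 80 replicate 1, high in skeletal muscle markers, had 8.37 CPM of EGR3, against 2.14 CPM in replicate 2. EGR1 had 56.3 CPM in WT day 65 replicate 2, with its lymphocyte markers, and 14.7 CPM in WT day 65 replicate 1. The part of the other tissue in these values was not tested. Over all 5 ages the F test called 9 of 10, against 17.9% of all tested genes, EGR1 being the exception (adjusted p = 0.0673).

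Against day 120 alone, 2 of 10 genes were called higher at birth, against 0.0498% of all tested genes. ATF3 rose by 3.64 ± 0.58 and NR4A2 by 2.02 ± 0.33 on the log2 scale (SE, adjusted p = 0.0451 each). All 10 fold changes were positive, with a median of 2.49. Over all tested genes, in either direction, edgeR called 27 and DESeq2 called 375. The count was 0 in 17 of 20 fits that left out 1 library, 4 without either WT day 80 library and 5 without WT day 147 replicate 1, and DESeq2 called 9.

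No gene of the 10 passed the edgeR test of CF against WT. At the mean of the 5 ages 0 of 10 were called, against 0.766% of all tested genes. DESeq2 called 1, FOSB, and 829 of all tested genes. In edgeR 2 of the 10 had an unadjusted p under 0.05, against 2254 of 20097 tested genes. FOSB had the largest difference, 1.64 ± 0.49 on the log2 scale (SE, adjusted p = 0.190). At birth, 0 of 10 were called, against 0.0945% of all tested genes, with 4 at an unadjusted p under 0.05, against 1592 of 20097 tested genes. DESeq2 called 3, FOSB, EGR1 and DUSP1, and 420 of all tested genes. Yet both CF birth libraries lay above both WT birth libraries in 7 of 10 genes, against 15.6% of all tested genes. The differences there were 4.66 ± 1.22 for FOSB (SE, adjusted p = 0.229), 3.90 ± 1.35 for EGR1 (adjusted p = 0.427) and 2.72 ± 0.68 for DUSP1 (adjusted p = 0.196). The DUSP1 difference was 2.02 without WT day 147 replicate 1 and 4.15 without WT day 147 replicate 2. JUNB and NR4A3 had values of -0.71 and -0.83, with adjusted p of 0.842 and 0.933. At days 65, 80, 100 and 120, 0 of 10 were called, against 0.00995%, 0%, 1.46% and 0% of all tested genes. Of these, 1 gene at day 100 had an unadjusted p under 0.05 and 0 at the other 3 ages, and DESeq2 called 0 at each. Of 20097 tested genes, 2479 had such a p at day 100, and 682, 1924 and 279 at days 65, 80 and 120.

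The difference of the birth changes, CF minus WT, asks whether the genotypes differed in their change at birth. It called 0 of 10, against 0.0199% of all tested genes, with 4 at an unadjusted p under 0.05, against 1324 of 20097 tested genes. DESeq2 called 1, DUSP1, and 297 of all tested genes. The values were 2.71 ± 0.73 for DUSP1 (SE, adjusted p = 0.288), 3.78 ± 1.26 for FOSB (adjusted p = 0.474) and 4.07 ± 1.45 for EGR1 (adjusted p = 0.530). For DUSP1 the value was 2.01 without WT day 147 replicate 1 and 4.16 without WT day 147 replicate 2. The 10 calls in CF and 5 in WT are thus not shown to differ between the genotypes.

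Levels between genes were compared per kilobase of summed exon length. In the CF birth libraries the medians were 399 CPM per kb for DUSP1, 395 for FOS and 138 for EGR1, and the lowest were 3.75 for EGR3 and 1.11 for NR4A3. In WT birth replicate 2 FOS came first with 279 CPM per kb and JUNB next with 143, while in WT birth replicate 1 DUSP1 had 22.8 and JUNB 21.8. In the fetal libraries DUSP1 came first with 27.2 CPM per kb, ahead of JUNB with 7.91 and FOS with 7.41, the last pair lying closer than their spread.

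The genes most like the 10 were found by correlating log2 CPM with the mean of the centred log2 CPM of the 10, over 20 libraries and 12192 candidate genes. Both CF birth libraries and WT birth replicate 2 stand apart from the fetal ones in this mean. WT birth replicate 1, at 0.32, lay just above the highest fetal library, at 0.28. Because r over 20 libraries holds that gap, r over the 16 fetal libraries is given beside it, both as descriptions. In the fetal libraries the 10 genes moved together less: the median r between pairs of them was 0.25, with 32 of 45 positive. Over 20 libraries it was 0.74, with 45 of 45 positive. The fetal libraries highest in the mean, WT day 65 replicate 2 (0.28) and CF day 80 replicate 1 (0.17), were among those holding other tissue. ZFP36, which promotes decay of messages with AU-rich elements, had an r of 0.93, and 0.81 in the fetal libraries. BTG2, an antiproliferative gene, had 0.91 and 0.19. JUN had 0.85 and 0.31. MTUS1, KLF4, RAB27A, MCL1, FAM13A and HEY1 had r of 0.75 to 0.81 over 20 libraries. In the fetal libraries r was 0.77 for MCL1, 0.75 for KLF4, 0.56 for RAB27A, 0.33 for MTUS1, 0.33 for FAM13A and 0.18 for HEY1.

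A list of 40 further immediate early genes held 39 tested genes, of which 13 were called higher and 1 lower at birth over both genotypes, against 5.71% and 5.74% of all tested genes. The list had a median log2 fold change of 0.68. JUN, the main partner of FOS, had 478 and 429 CPM in the CF birth libraries, 84.0 and 248 CPM in the WT ones and 55.6 to 175 CPM in the fetal ones. ZFP36 had 187 and 148 CPM in the CF birth libraries, 33.3 and 32.3 CPM in the WT ones and 3.26 to 21.8 CPM in the fetal ones. BTG2 had 468 and 342 CPM in the CF birth libraries, 76.9 and 237 CPM in the WT ones and 31.0 to 80.2 CPM in the fetal ones. The changes were 2.44 ± 0.29 for ZFP36 (SE, adjusted p = 0.000204), 2.35 ± 0.22 for BTG2 (adjusted p = 4.96e-05), 1.75 ± 0.20 for PTGS2 (adjusted p = 0.000195) and 1.49 ± 0.21 for JUN (adjusted p = 0.000632). PLK2 fell by 0.68 (adjusted p = 0.0107). Within CF 10 of 39 were called higher, against 2.06% of all tested genes, and within WT 5 of 39, against 2.48%. The 14 calls over both genotypes became 7 without CF day 147 replicate 1, 8 without WT day 147 replicate 2 and 6 with the libraries of a shared identifier summed.

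The factors that act above these genes, such as serum response factor, CREB and the MAP kinases, gave 0 of 24 called in either direction, and DESeq2 called 0. In edgeR 1 of the 24 had an unadjusted p under 0.05, against 4892 of 20097 tested genes. With the length slope as a covariate 3 were called, and 1 was called without WT day 147 replicate 1 or without CF day 80 replicate 2. The share over all tested genes was 5.71% higher and 5.74% lower in the fit of all libraries without the covariate. With the covariate, 5745 of 20097 tested genes were called in either direction. A list of other dual specificity phosphatases, with SPRY1, SPRY4, SPRED1 and SPRED2 added, held 13 tested genes. Of these 13, 1 was called higher, a share near that of all genes. This was DUSP6, by 0.96 ± 0.23 (SE, adjusted p = 0.0183). That call was lost without WT day 147 replicate 1 and without either CF day 147 library, with adjusted p up to 0.0829, and also with library size alone or with the libraries of a shared identifier summed, with adjusted p up to 0.102.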

How the data were processed

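RNA was extracted from frozen tissue with TRIzol, per the labels' protocols. Per the submitters' processing notes, STAR 2.6 and featureCounts 1.6.3 of Subread were used. The authors deposited raw counts per gene for the 10 CF and 10 WT libraries and, per the file headers, positions and summed exon lengths (another kind of value, in bases). No source used here gives the genome build, annotation or strand setting. Even numbers made up 70.7% to 85.3% of values between 1 and 20, but 50.1% to 58.3% of values from 1000 up, so counts may hold both reads of a pair. Replicates differed beyond counting noise (chi-square per gene 39.3 to 1744), and 0 sample columns were left unused.

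Tests used edgeR 4.0.16 in R 4.3.3: filterByExpr over the 10 groups, TMM, a robust quasi-likelihood fit with 1 coefficient per group over all 20 libraries, and Benjamini-Hochberg adjusted p over 20097 genes with a threshold of 0.05. The SE is |log2 fold change| over the square root of F. log2 CPM used a prior count of 2. DESeq2 1.42.0 was an alternative, and the edgeR step was tested on simulated data. Members and lists were chosen with earlier results of these data known. Named genes are the 10 members, the 10 genes most like them, and up to 4 per direction of each list with the largest called change at birth or between genotypes. Some genes that this rule takes are not reported here. HSPA6 and HSPA1A are named besides, chosen after their values were seen.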

Additional observations from a re-analysis of the deposited data

How the results depend on the processing

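Among members called in the fit of all libraries, 1 fold change at birth reversed: FOS in WT, to -0.23 without WT day 147 replicate 2, the highest value with 1 library left out being 4.95. The WT fold changes of the 5 members not called in WT were not followed over these fits. Leaving out 1 library at a time gave 9 to 10 members called over both genotypes and over age, 0 to 6 in WT, 6 to 10 in CF, 0 to 5 against day 120 and 0 to 3 over the fetal ages. With libraries of a shared identifier summed, 3 were called in WT, 5 in CF, 0 against day 120 and 0 over the fetal ages. DESeq2 called 1 for the difference of birth changes, 9 against day 120, 1 for CF against WT at the mean of ages, 3 at birth and 4 over the fetal ages. Over all tested genes DESeq2 called 297 for the difference, 375 against day 120 and 5744 over the fetal ages. The edgeR counts there were 4, 27 and 2422. Against day 120, the length slope as a covariate gave 6, and leaving out the 4 libraries with other tissue 0. Over the fetal ages that omission gave 0, and library size alone 1. The cause was not tested. Replicate numbers do not pair the libraries: deviations of same-numbered libraries correlated at -0.59 to 0.73 (median 0.02, 25 of 45 positive). With the replicate block, 10 were called over both genotypes and in CF, 5 in WT, 9 over age, 0 against day 120, 1 over the fetal ages and 0 for CF against WT or the difference. Over all genes, birth against the fetal ages called 2302 (808 with shared identifiers summed to 5745 with the length slope), 806 in WT (326 to 2840) and 1041 in CF (54 to 3602). CF against WT called 154 (2 with identifiers summed, 829 by DESeq2) and 19 at birth (1 and 420).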

Other observations

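Heat shock genes, which cells switch on when proteins misfold, were followed as a list. For CF against WT at birth, and for the difference of the birth changes, edgeR called 0 of 10, with 4 at an unadjusted p under 0.05 in each. Of 20097 tested genes, 1592 and 1324 had such a p. HSPA6 and HSPA1A are given after their values were seen. HSPA6, an inducible HSP70, had 276 and 326 CPM in the CF birth libraries, 2.16 and 11.7 CPM in the WT ones and 1.46 to 55.6 CPM in the fetal ones. HSPA1A, the main inducible HSP70, had 5892 and 7275 CPM in the CF birth libraries, 436 and 790 CPM in the WT ones and 261 to 4477 CPM in the fetal ones. In CF, 3 of 10 heat shock genes were called higher at birth (HSPA6, HSPA1A and the cochaperone DNAJB1) and 1 lower, against 2.06% and 3.12% of all tested genes. In WT 0 of 10 were called, with 1 at an unadjusted p under 0.05, against 3461 of 20097 tested genes. The collagen chaperone SERPINH1 fell by 0.80 ± 0.14 on the log2 scale over both genotypes (SE, adjusted p = 0.00319). Whether the heat shock calls in CF hold with the CF birth pair summed was not examined. WT replicate 2, high in FOS and ATF3, was within the fetal range for both HSP70 genes.

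Genes downstream of the immediate early factors gave 4 of 17 higher and 1 lower at birth over both genotypes, against 5.71% and 5.74% of all tested genes. LIF, a cytokine of the interleukin 6 family, had 55.6 and 32.6 CPM in the CF birth libraries, 9.33 and 2.32 CPM in the WT ones and 0.437 to 10.2 CPM in the fetal ones. PLAUR and F3 were also higher, by 1.70 ± 0.24 (SE, adjusted p = 0.000668) and 0.88 ± 0.24 (adjusted p = 0.0322), and the EGR corepressor NAB2 fell by 0.52 ± 0.15 (adjusted p = 0.0357). The NAB2 call was lost in 14 of 20 fits that left out 1 library, with adjusted p up to 0.184, and the F3 call in 8 of 20, with adjusted p up to 0.138. The 5 calls became 3 without WT day 65 replicate 2, WT day 147 replicate 1, CF day 100 replicate 1 or either CF day 147 library, and 8 without WT day 80 replicate 2.

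Glucocorticoid-responsive genes gave 3 of 9 higher at birth over both genotypes, against 5.71% of all tested genes. KLF9, a direct glucocorticoid receptor target, had 43.8 and 40.4 CPM in the CF birth libraries, 126 and 85.9 CPM in the WT ones and 4.56 to 37.4 CPM in the fetal ones. All 4 birth libraries of KLF9 exceeded the fetal range, and its change was 2.36 ± 0.27 (SE, adjusted p = 0.000170). FKBP5 rose by 1.11 ± 0.26 (adjusted p = 0.0151) and TFCP2L1 by 1.57 ± 0.33 (adjusted p = 0.00885). For each of this pair only 2 birth libraries exceeded the fetal range, and the FKBP5 call was lost with library size alone. The 3 calls became 1 without CF day 147 replicate 1 or with the libraries of a shared identifier summed, and 5 without WT day 80 replicate 2.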
